A study of Mus musculus with 13 samples.

Results

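Cytochrome P450 genes of families 1 to 4 were followed at 3 and 9 weeks of age in wild-type liver and in liver with a hepatocyte-directed deletion of Sel1l. The members were all genes whose array symbol begins with Cyp1, Cyp2, Cyp3 or Cyp4 and a letter. The 8 genes left out were chosen by name (Cyp4a12a, Cyp4a12b, Cyp2d9, Cyp2b9, Cyp2b13, Cyp2a22, Cyp3a16 and Cyp3a44), and each remaining gene was represented by the 1-symbol feature with the highest mean over all livers. This gave 62 of the 18820 genes measured, in 21 subfamilies (a subfamily is the family number with its letter). The 8 further P450 features that carry several gene symbols were not used.

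All mice were on the C57BL/6J background. Wild-type livers at 3 weeks (n = 3) and at 9 weeks (n = 3) were compared with LiSel1lKO livers at 3 weeks (n = 4) and at 9 weeks (n = 3). In these knockouts exon 6 of Sel1l is floxed and removed by Cre under the albumin promoter, which directs the deletion to hepatocytes. Whole-liver arrays do not show which cells lost the gene. Mice of every group had fasted for 5 to 6 hours in the morning, each liver went on its own array, and the sources used here give neither the sex of the mice nor whether they were littermates, nor whether the wild-type mice carried the floxed allele or Cre. Sel1l itself stood at 8.94, 8.77 and 8.85 (log2) in wild type and 8.42, 7.90, 7.20 and 7.10 in Sel1L-deficient liver at 3 weeks. At 9 weeks it stood at 8.78, 8.70 and 8.72 against 7.90, 7.54 and 7.72, so every knockout liver lay below every wild-type liver of its age.

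P450 enzymes are haem proteins of the endoplasmic reticulum membrane that insert oxygen into drugs, toxins, steroids and fatty acids. Families 1 to 3 clear mostly foreign compounds and are induced through the receptors AHR (family 1), CAR (subfamily 2b) and PXR (subfamily 3a), while family 4 hydroxylates fatty acids and is partly under PPARalpha. Sel1L belongs to the ubiquitin ligase complex that removes misfolded proteins from the same membrane.

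All values are RMA log2 expression, on which 1 unit is a doubling. Array medians lay between 3.72 and 3.81, and any pair of livers within a group had a correlation of 0.983 to 0.988 over 35556 features. A gene was called when its adjusted p fell under 0.05 in a limma fit over all features. Of the 62 members, 40 had a mean above the median of all feature means (3.76) and are called the measurable members here. The other 22 had means between 1.37 and 3.32, a range in which a gene may be at background. These 22 included Cyp1a1, Cyp1b1, Cyp2g1, Cyp2w1, Cyp4x1 and the only Cyp2ab and Cyp2t members. None of these 22 was called in any of the 5 comparisons, and their genotype differences ran from -0.62 to 0.21 at 9 weeks. Because levels of different probes are not comparable, differences between groups were taken within each gene. The split at the median, the highest member of a subfamily and the list means used levels across probes and are only rough guides.

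**Figure D1:**
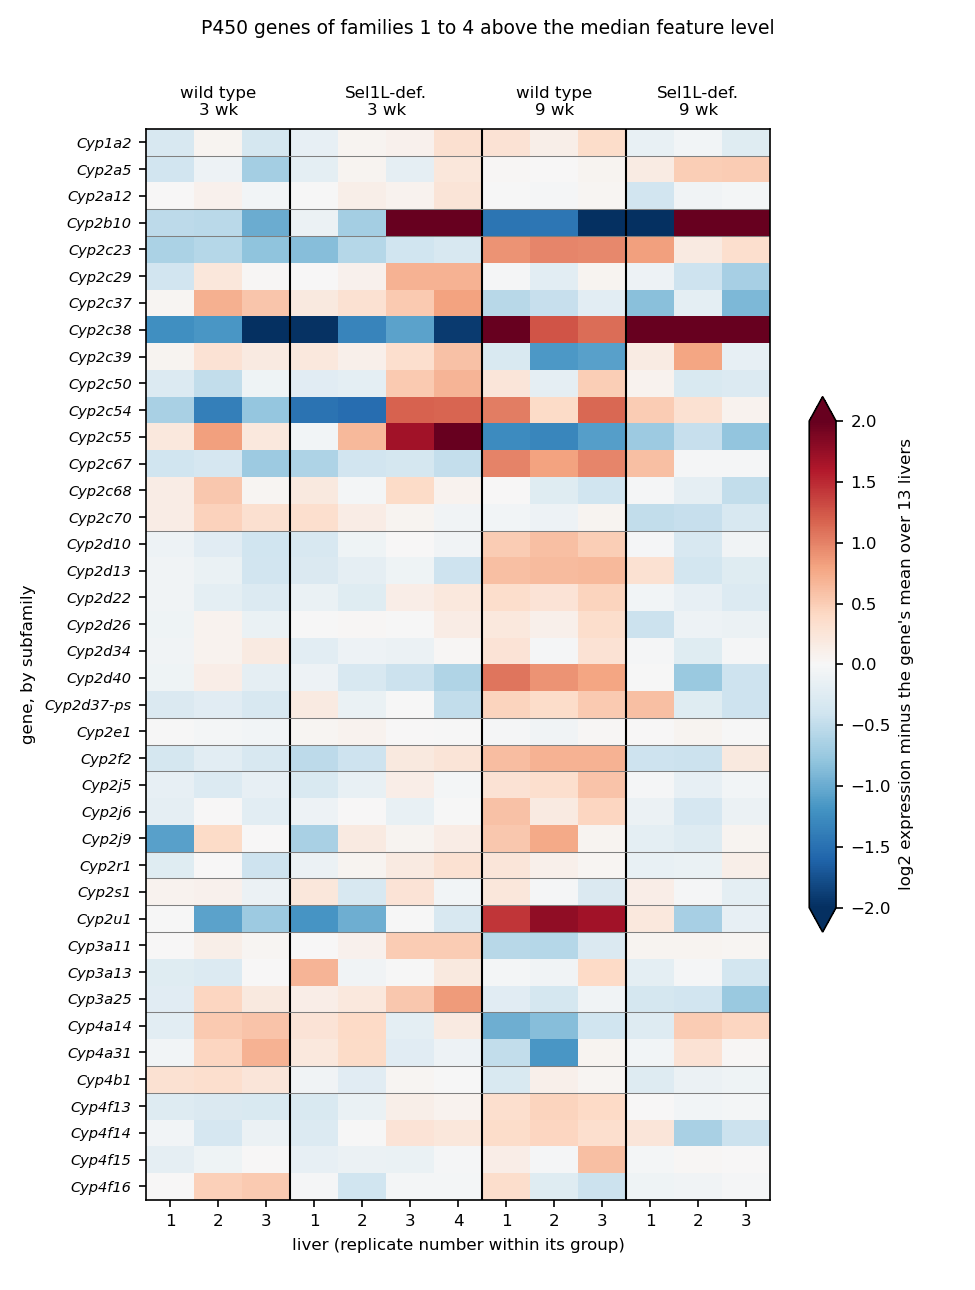
Log2 expression of the 40 measurable members (vertical axis, by subfamily) in each of the 13 livers (horizontal axis, replicate number within its group), as the difference from the gene's mean over all livers. Colours saturate at 2 units either way. Red patches in the wild-type livers at 9 weeks mark genes such as Cyp2c23, Cyp2d40 and Cyp2u1, and Cyp2b10 is dark red in 4 of the 7 Sel1L-deficient livers.

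The comparison at 9 weeks asks how loss of Sel1L alters P450 transcripts in young adult liver. The genes called lower in Sel1L-deficient than in wild-type liver were Cyp2d40, Cyp2d10, Cyp2j6 and Cyp2u1. These were 4 of 62 members (6.45%), against 1.52% of all features called in either direction and 0.484% called lower, and 0 members were called higher (1.03% of all features). At an unadjusted p under 0.05 there were 23 members, 4 higher and 19 lower (37.1%, against 13.9% of all features). Among the measurable members 29 of 40 lay below 0 (72.5%), against 43.8% of all features of that brightness, and their median difference was -0.31 log2 units against 0.04.

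Cyp2d40 stood at 8.35, 8.17 and 8.07 in wild type and at 7.26, 6.54 and 6.86 in Sel1L-deficient liver at 9 weeks. The knockout was lower by 1.31 ± 0.18 on the log2 scale (SE, 0.403-fold, adjusted p = 0.0121). Cyp2d10 read 9.39, 9.50 and 9.38 against 8.86, 8.57 and 8.83, lower by 0.67 ± 0.11 in the knockout (0.629-fold, adjusted p = 0.0220). Both belong to the subfamily that in humans holds the drug-metabolising enzyme CYP2D6. In neither gene did the groups overlap, and Sel1L-deficient replicate 2 was lowest in each.

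Cyp2u1, a hydroxylase of long-chain fatty acids, had the largest difference between genotypes of the called members. It read 7.52, 7.87 and 7.78 in wild-type against 6.31, 5.43 and 5.93 in Sel1L-deficient livers. The difference was -1.84 ± 0.35 (SE; 0.280-fold, adjusted p = 0.0296). Cyp2j6, of a subfamily that makes epoxides from arachidonic acid, read 8.01, 7.59 and 7.85 against 7.30, 7.08 and 7.31, a difference of -0.59 ± 0.12 (0.665-fold, adjusted p = 0.0341). For both genes all 3 knockout livers lay below the lowest wild-type liver.

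The array names carry a position column, 5 or 7, and each group has livers in both. Within columns 5 and 7 the 9-week differences were -1.12 and -1.67 for Cyp2d40, -0.65 and -0.82 for Cyp2d10, -1.75 and -2.23 for Cyp2u1, and -0.29 and -0.85 for Cyp2j6. Column 5 held 1 wild-type liver and column 7 held 1 Sel1L-deficient liver of this age. With the column as a block Cyp2j6 missed the threshold (adjusted p = 0.0631) and the other 3 kept their call. The count of 4 rested on single livers. It was 11 without Sel1L-deficient replicate 1 (3.31% of all features called), 0 without replicate 2 (0.0844%) and 0 without replicate 3 (0.0506%). Without wild-type replicate 1, 2 or 3 it was 2, 2 and 1 (0.394%, 0.225% and 0.616%).

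When only features above the median of feature means were tested, 12 of the 40 measurable members were called at 9 weeks, 11 lower and 1 higher, and they included the 4 named above. In that fit 4.83% of all features were called. The other lower genes were Cyp2d13, Cyp2d22, Cyp2d26, Cyp2c67, Cyp2f2, Cyp2j5 and Cyp4f13, with differences between -0.88 and -0.43, and the higher gene was Cyp2c39 (1.10). The groups did not overlap for 19 of all 62 members in the lower direction (30.6%, against 8.52% of all features) and for 5 in the higher direction (8.06%, against 9.89%). Each Sel1L-deficient liver showed the pattern. Replicates 1, 2 and 3 lay below every wild-type liver of their age for 22, 24 and 24 of the 40 measurable members (55%, 60% and 60%), against 25.1%, 25.8% and 26.2% of all features of that brightness. They lay above every wild-type liver for 7, 10 and 6 (17.5%, 25% and 15%), against 30.9%, 37.4% and 36.4%.

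**Figure D2:**
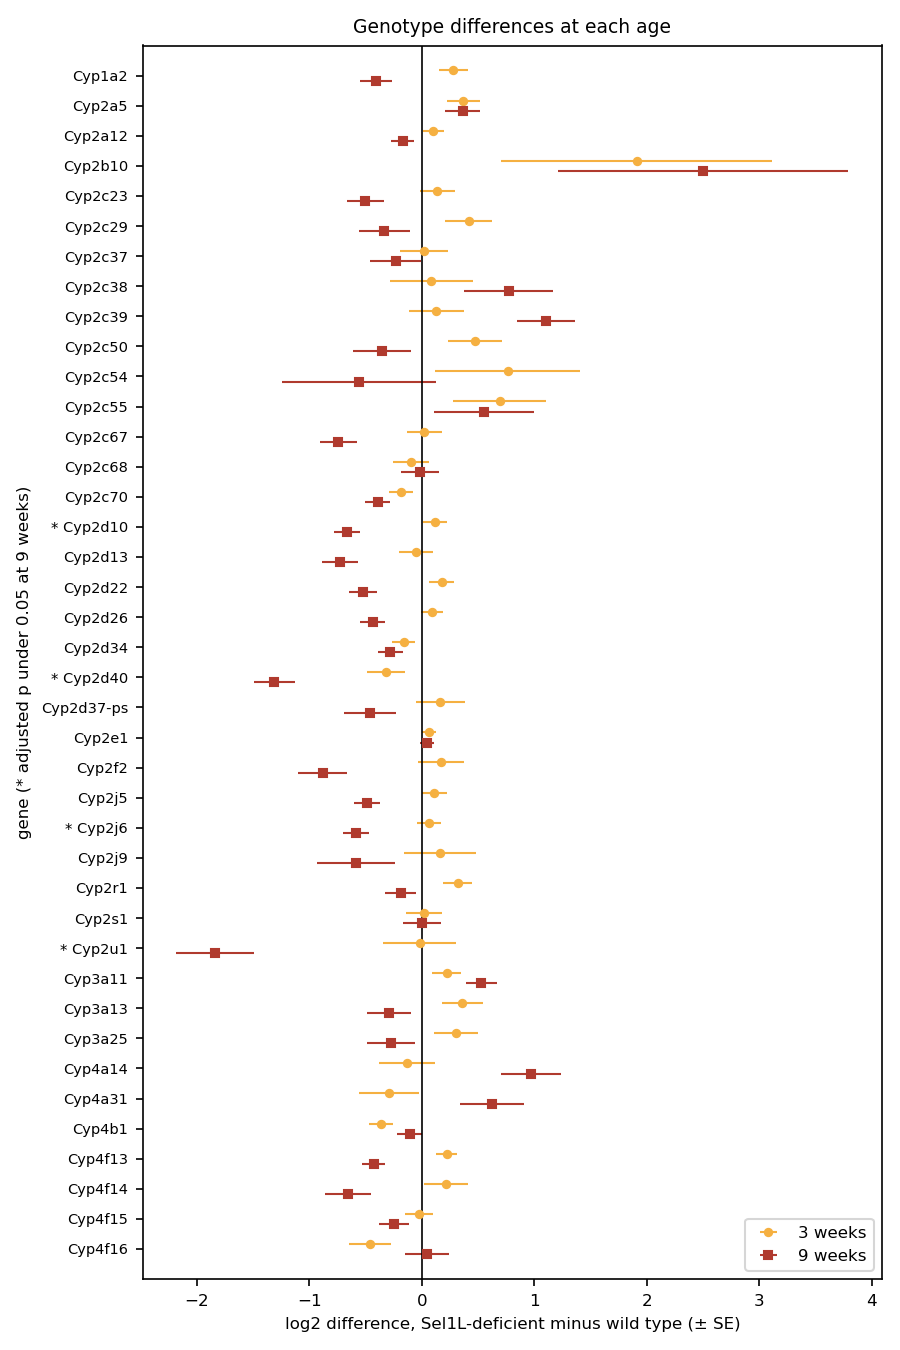
Log2 difference between Sel1L-deficient and wild-type liver (horizontal axis, ± SE of the limma fit) for the 40 measurable members (vertical axis, by subfamily), at 3 weeks (orange circles) and 9 weeks (red squares). At 9 weeks 29 of the 40 squares lie left of 0, and at 3 weeks 11 of the 40 circles do.

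At 3 weeks, around weaning, 0 of the 62 members were called (0% of all features), and the smallest adjusted p among them was 0.477. At an unadjusted p under 0.05 there were 6 members, 4 higher and 2 lower (9.68%, against 7.41% of all features). Of the measurable members 29 of 40 lay above 0, with a median of 0.11 against 0.01 over all features of that brightness. In 2 members, Cyp4b1 and Cyp4f16, every knockout liver lay below every wild-type liver (3.23%, against 3.53% of all features), and in 0 members the reverse held (3.88%). Cyp4b1, an enzyme best known from lung, read 6.49, 6.53 and 6.43 in wild type against 6.12, 5.95, 6.23 and 6.18. Its difference was -0.36 ± 0.11 (SE; adjusted p = 0.477). The genes called lower than wild type at 9 weeks differed at 3 weeks by 0.12 ± 0.11 (Cyp2d10), -0.32 ± 0.17 (Cyp2d40), 0.06 ± 0.11 (Cyp2j6) and -0.02 ± 0.32 (Cyp2u1), with overlapping groups in each.

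The change of the genotype effect between ages was tested as an interaction. It was called for 0 of 62 members (0% of all features), with a smallest adjusted p of 0.179 for Cyp2d10. At an unadjusted p under 0.05 there were 24 members (38.7%, against 9.73% of all features), 21 with a lower and 3 with a higher effect at 9 weeks. The interaction was -0.79 ± 0.16 for Cyp2d10, -0.65 ± 0.14 for Cyp4f13 and -0.65 ± 0.16 for Cyp2j6 (SE). A difference of the genotype effect between ages was thus not established for any single member at this number of arrays.

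In wild-type liver the comparison of 9 with 3 weeks describes the normal course of these genes from weaning to adulthood. The members that rose were Cyp2c23, Cyp2c38, Cyp2c67, Cyp2d10, Cyp2d13, Cyp2d40, Cyp2j5, Cyp2j6, Cyp2u1 and Cyp4f13. These were 10 of 62 (16.1%), against 1.89% of all features called in either direction and 0.765% called higher, and 0 members were called lower (1.12% of all features). At an unadjusted p under 0.05 there were 34 members, 23 higher and 11 lower (54.8%, against 13.6% of all features). The ages did not overlap for 23 members in the higher direction (37.1%, against 8.46%) and for 9 in the lower (14.5%, against 9.38%).

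Cyp2c23, an arachidonic acid epoxygenase, had the smallest adjusted p of the members (0.00126). It read 9.86, 9.92 and 9.69 at 3 weeks and 11.39, 11.47 and 11.46 at 9 weeks, a rise of 1.61 ± 0.17 (SE; 3.06-fold).

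Cyp2c38 rose the most, from 4.78, 4.84 and 3.43 to 8.09, 7.26 and 7.12, by 3.15 ± 0.39 (8.85-fold, adjusted p = 0.00294). Its 3-week value of 3.43 lay below the median of feature means (3.76). The baseline of Cyp2c38 may thus be near background, which makes its fold change uncertain. Cyp2u1 followed, from 6.09, 5.02 and 5.37 to 7.52, 7.87 and 7.78 (4.69-fold, adjusted p = 0.00941), and Cyp2c67 went from 8.77, 8.83 and 8.43 to 10.16, 9.96 and 10.13 (2.65-fold, adjusted p = 0.00252). None of these groups overlapped. Next in size among the called genes were Cyp2d40 (1.95-fold) and Cyp2d13 (1.76-fold), the latter a transcribed pseudogene in RefSeq. Cyp2d13 read 9.41, 9.35 and 9.10 at 3 weeks and 10.08, 10.11 and 10.13 at 9 weeks (adjusted p = 0.0281). Cyp2d40 read 7.19, 7.41 and 7.10 at 3 weeks, below its 9-week values given above (adjusted p = 0.0236). Smaller rises were those of Cyp2d10 (0.77 ± 0.11), Cyp4f13 (0.68 ± 0.10), Cyp2j5 (0.60 ± 0.11) and Cyp2j6 (0.53 ± 0.12, SE). Within position columns 5 and 7, which held 1 wild-type liver at 9 and at 3 weeks respectively, each of the 10 was higher at 9 weeks, with differences from 0.38 (Cyp2j6, column 5) to 3.16 (Cyp2c38, column 5). The count was 6 without wild-type replicate 1 or 3 at 3 weeks, or without wild-type replicate 3 at 9 weeks (0.903%, 1.03% and 0.838% of all features). The count of 0 lower members became 2 (Cyp2c39, -1.02, and Cyp4a14, -1.04) when only features above the median were tested.

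In Sel1L-deficient liver 2 members rose between 3 and 9 weeks, Cyp2c38 and Cyp2c23 (3.23%, against 0.0759% of all features), and 0 members were called lower (0.0787%; either direction 0.155%). At an unadjusted p under 0.05 there were 15, 4 higher and 11 lower (24.2%, against 10.1% of all features). The ages did not overlap for 3 members in the higher direction (4.84%, against 4.67%) and for 10 in the lower (16.1%, against 4.69%). Cyp2c38 read 4.03, 4.68, 4.93 and 4.09 at 3 weeks and 8.26, 8.53 and 8.01 at 9 weeks, a 14.2-fold rise (adjusted p = 0.00288). Cyp2c23 went from 9.65, 9.93, 10.10 and 10.18 to 11.31, 10.68 and 10.83, by 0.98 ± 0.16 (SE; adjusted p = 0.0477). Its call ended when any of 12 of the 13 livers was left out, which left 1 member, Cyp2c38. It remained without Sel1L-deficient replicate 1 of 9 weeks. When only features with 1 symbol were tested, Cyp2c37 (-1.10), Cyp3a25 (-0.93) and Cyp2c70 (-0.55) were called lower (adjusted p = 0.0308, 0.0468 and 0.0382), with 0.679% of all features called. The other 8 genes that rose in wild type had knockout differences of -0.12 (Cyp2j6), -0.03 (Cyp2d40), -0.02 (Cyp2d10), 0.00 (Cyp2j5), 0.03 (Cyp4f13), 0.15 (Cyp2d13), 0.41 (Cyp2u1) and 0.64 (Cyp2c67). None of these 8 was called. The wild-type livers at 9 weeks enter both this ageing comparison in wild type and the genotype comparison at 9 weeks, so that the low knockout values and the wild-type rises are not independent observations.

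**Figure D3:**
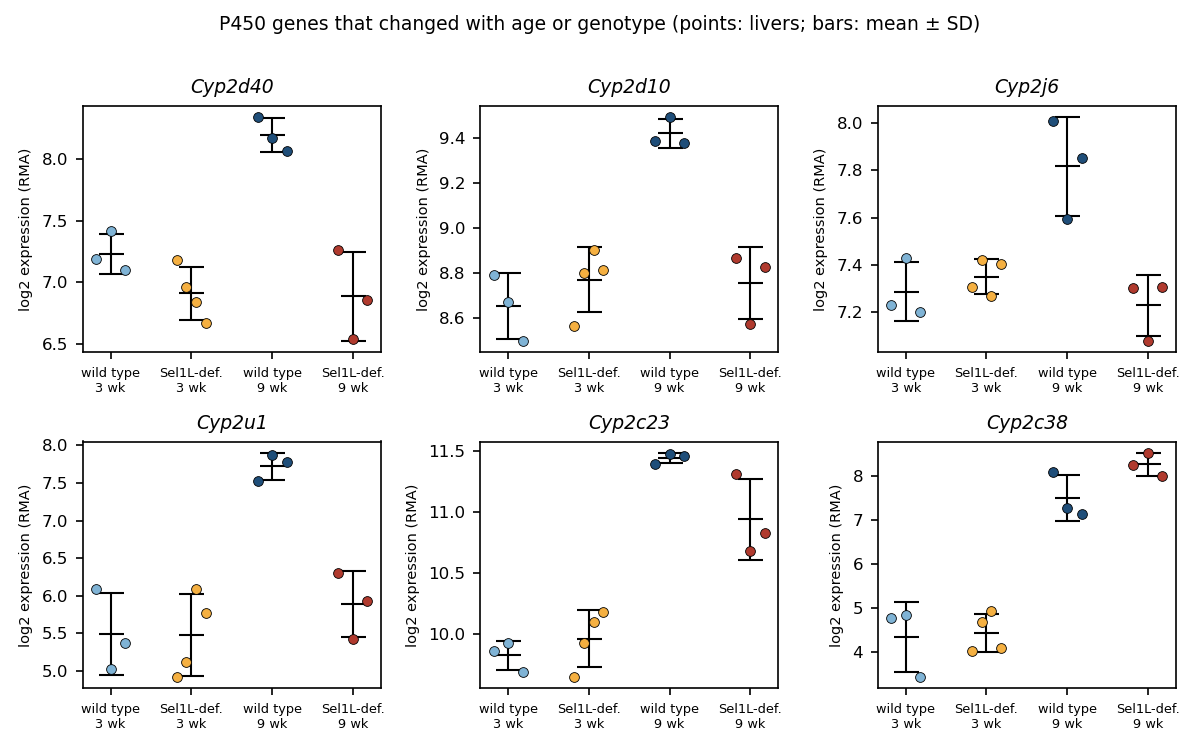
Log2 expression (vertical axis) of 6 P450 genes in the 4 groups (horizontal axis), with a point for each liver and bars for mean ± SD. Cyp2d40, Cyp2d10, Cyp2j6 and Cyp2u1 are higher in wild-type livers at 9 weeks than in the other 3 groups, and Cyp2c38 is higher at 9 weeks in both genotypes.

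Subfamily 2d had 9 members, of which 7 were measurable. At 9 weeks all 7 lay below wild type in the knockout (median -0.52), and in wild-type ageing all 9 members lay above 0. Cyp2d26, its member with the highest mean, read 12.10, 11.99 and 12.24 in wild type and 11.46, 11.78 and 11.77 in Sel1L-deficient liver at 9 weeks (-0.44 ± 0.11, SE; adjusted p = 0.0734). Cyp2d13 (-0.73 ± 0.16, adjusted p = 0.0527) and Cyp2d22 (-0.52 ± 0.12, adjusted p = 0.0625) showed no overlap either but missed the threshold. Cyp2d37-ps, a transcribed pseudogene, read 9.46 in replicate 1 of the knockout, above all wild-type livers, and 8.61 and 8.44 in the others. Members of this subfamily, like some of subfamily 2c, are close copies that can share probe signal, so single genes within both are uncertain.

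Cyp2d10 and Cyp2d40 are shown by sequence because both were called lower than wild type in the knockout at 9 weeks. The lines give 250 bases upstream of the RefSeq start site (GRCm38.p6, minus strand, chr15:82407195-82407444 and chr15:82764123-82764372), 5′ to 3′, with every run of at least 12 bases found in both windows in capitals.
Cyp2d10: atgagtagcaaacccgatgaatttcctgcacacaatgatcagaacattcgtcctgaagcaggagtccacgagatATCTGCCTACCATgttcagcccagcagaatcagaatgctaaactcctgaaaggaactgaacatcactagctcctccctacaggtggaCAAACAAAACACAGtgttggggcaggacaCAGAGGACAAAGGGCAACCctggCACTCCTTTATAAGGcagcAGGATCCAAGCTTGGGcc
Cyp2d40: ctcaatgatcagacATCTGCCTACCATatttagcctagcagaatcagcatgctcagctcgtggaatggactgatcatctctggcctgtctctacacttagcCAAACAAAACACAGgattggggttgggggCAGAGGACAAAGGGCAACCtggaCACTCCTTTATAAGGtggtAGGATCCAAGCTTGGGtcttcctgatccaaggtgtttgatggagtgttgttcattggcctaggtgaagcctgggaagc
The windows share 5 such runs, 77 bases in all, in the same order. The longest has 19 bases, and the 15-base run holds TATAAA as read on the opposite strand. Each run lies 60 bases farther from the annotated start in Cyp2d40 than in Cyp2d10. In a global alignment of the 2 windows 49.35% of the columns were identical. The median was 49.15% over member pairs of the same subfamily, and Cyp2d10 with Cyp2d11 reached 75.85%. The alignment of Cyp2d10 with Cyp2d40 had 153 identical of 310 columns, and a column with a gap counted as not identical. The 60-base offset thus lowers the share, which does not measure how alike the aligned bases are.

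Subfamily 2c, which in humans holds major drug-metabolising enzymes, was the largest with 13 members, 11 of them measurable. Its genes took different courses. In wild-type ageing Cyp2c38, Cyp2c23 and Cyp2c67 rose, while Cyp2c55 (-1.63 ± 0.44), Cyp2c39 (-1.02 ± 0.26) and Cyp2c37 (-0.85 ± 0.23, SE) had differences below 0 without overlap and without a call (adjusted p between 0.0791 and 0.104). At 9 weeks 8 of the 11 lay below wild type in the knockout, with a median of -0.34. Cyp2c67 read 10.16, 9.96 and 10.13 against 9.76, 9.13 and 9.13 (adjusted p = 0.0564). Cyp2c70, the mouse enzyme that makes muricholic bile acids, read 10.93, 10.88 and 11.04 against 10.49, 10.52 and 10.65 (-0.39 ± 0.11; adjusted p = 0.127). Cyp2c29, its member with the highest mean, had 11.07, 10.89 and 11.15 against 10.99, 10.69 and 10.43, with overlap.

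Cyp2c38 and Cyp2c39 are neighbouring coding genes with different courses, a pair picked after their values were seen. Cyp2c39 read 6.05, 6.30 and 6.19 at 3 weeks and 5.70, 4.86 and 4.92 at 9 weeks in wild type. In Sel1L-deficient liver it stayed between 5.84 and 6.79 at both ages, and at 9 weeks its 3 values of 6.16, 6.79 and 5.84 lay above all wild-type values (1.10 ± 0.26, SE; adjusted p = 0.0633). Their upstream windows (GRCm38.p6, chr19:39463076-39463325 on the minus strand and chr19:39347096-39347345 on the plus strand) are shown to let the likeness be seen. Capitals again mark runs of at least 12 bases found in both.
Cyp2c38: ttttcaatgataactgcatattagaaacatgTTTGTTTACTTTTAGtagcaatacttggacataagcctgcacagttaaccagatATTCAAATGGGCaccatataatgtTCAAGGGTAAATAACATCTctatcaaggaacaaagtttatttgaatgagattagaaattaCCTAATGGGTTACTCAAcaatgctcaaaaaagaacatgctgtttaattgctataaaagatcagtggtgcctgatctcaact
Cyp2c39: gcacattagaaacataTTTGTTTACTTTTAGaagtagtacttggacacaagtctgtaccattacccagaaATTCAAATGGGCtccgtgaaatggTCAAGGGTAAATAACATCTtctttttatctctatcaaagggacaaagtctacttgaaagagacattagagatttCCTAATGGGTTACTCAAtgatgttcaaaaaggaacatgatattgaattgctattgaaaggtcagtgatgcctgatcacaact
In a global alignment 75.8% of the columns were identical. The median was 49.2% over 115 member pairs of the same subfamily and 44.8% over 1061 pairs of different subfamilies. RefSeq lists 2 start sites for Cyp2c39, and the other one gave 71.0%.

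**Figure D4:**
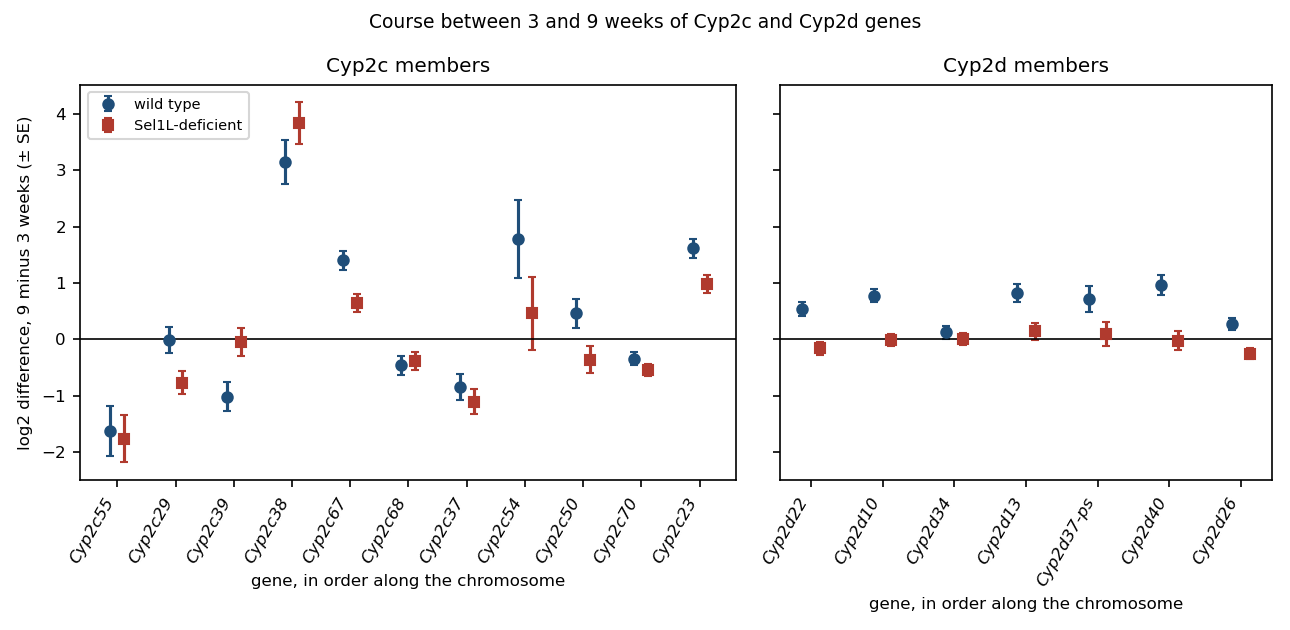
Log2 difference between 9 and 3 weeks (vertical axis, ± SE of the limma fit) of the measurable Cyp2c and Cyp2d genes in their order along the chromosome (horizontal axis), in wild-type (blue circles) and Sel1L-deficient liver (red squares). Cyp2c genes lie on both sides of 0 in either genotype, and the Cyp2d genes lie above 0 in wild type and nearer to 0 in Sel1L-deficient liver.

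Short sequence motifs were searched on both strands in the same 250-base windows, which 49 of the 62 members had in the RefSeq table. TATAAA was found in 18 of 49 windows (36.7%), against 12.4% of all 32851 windows. CAAAGTCCA, a motif of the liver factor HNF4, was found in 5 (10.2%, against 0.384%), namely Cyp2c65, Cyp2c67, Cyp2c68, Cyp2c70 and Cyp3a11. AGGTCA, the core unit of nuclear receptor sites, was in 11 (22.4%, against 14.0%). The STAT5-type letters TTCNNNGAA were in 4 (8.16%, against 7.02%), and the AHR core GCGTG in 12 (24.5%, against 28.2%). A match is a description of the letters only.

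Subfamily 2j had 6 members, 3 of them measurable, and all 6 lay below wild type in the knockout at 9 weeks. Cyp2j5, an epoxygenase of arachidonic acid, read 10.69, 10.73 and 10.97 against 10.37, 10.23 and 10.33 without overlap (-0.49 ± 0.11, SE; adjusted p = 0.0633). Cyp2j9 overlapped between genotypes (-0.59 ± 0.34). Cyp2f2, the naphthalene-activating enzyme of portal hepatocytes and lung, read 12.45, 12.54 and 12.52 in wild type and 11.43, 11.40 and 12.03 in Sel1L-deficient liver at 9 weeks (-0.88 ± 0.22; adjusted p = 0.0772). Its knockout values at 3 weeks were 11.31, 11.42, 12.03 and 12.09, on both sides of the wild-type livers (11.48, 11.63 and 11.52). Other transcripts of the portal zone are given beside it. All 7 measured members of a 10-gene periportal list lay below 0 at 9 weeks (median -0.32). Of all features above the median of feature means 43.8% did so. At 3 weeks 5 of the 7 lay above 0. The mean level of the list at 9 weeks was 9.27 to 9.45 against 9.75 to 9.98 in wild type. Cdh1, a cadherin of portal hepatocytes, was the 1 member called lower (-1.08, adjusted p = 0.0370), against 0.484% of all features. The pericentral list overlapped (8.03 to 8.20 against 7.67 to 8.10, with 3 of 10 members below 0). The part of zonation in the P450 differences was not tested.

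Subfamilies 2e, 1a and 2a and the single-member subfamilies 2r and 2s had 0 members called. Cyp2e1, the ethanol-oxidising P450, lay between 12.72 and 12.86 in all 13 livers, close to the upper end of the array (13.62), where differences may be compressed. The knockout differed from wild type by 0.06 ± 0.06 at 3 weeks (SE; adjusted p = 0.845) and by 0.05 ± 0.06 at 9 weeks (adjusted p = 0.820). Cyp1a2, the caffeine-oxidising target of AHR, read 11.61, 11.45 and 11.70 in wild type and 11.18, 11.27 and 11.09 in Sel1L-deficient liver at 9 weeks, without overlap (-0.41 ± 0.14; adjusted p = 0.194). At 3 weeks it read 11.00, 11.38 and 10.98 against 11.16, 11.38, 11.42 and 11.64, with overlap. In subfamily 2a, Cyp2a12 lay between 11.19 and 11.82 in all livers. Cyp2a5, the coumarin hydroxylase, read 10.98, 10.97 and 11.01 against 11.12, 11.45 and 11.47 at 9 weeks (0.36 ± 0.16; adjusted p = 0.330), 1 of the few members with all knockout values above wild type. Cyp2r1, which activates vitamin D, differed by 0.32 ± 0.13 at 3 weeks and -0.19 ± 0.14 at 9 weeks (adjusted p = 0.635 and 0.599), and Cyp2s1 by 0.02 ± 0.16 and 0.00 ± 0.17.

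Subfamily 4a, the fatty acid omega-hydroxylases under PPARalpha, had 2 members here, and both lay above wild type in the knockout at 9 weeks. Cyp4a14 read 10.68, 10.80 and 11.27 in wild type and 11.40, 12.18 and 12.09 in Sel1L-deficient liver, a 1.96-fold difference without overlap (0.97 ± 0.27, SE; adjusted p = 0.109). At 3 weeks its values were 11.45, 12.19 and 12.24 against 11.93, 12.06, 11.47 and 11.85, with overlap. Cyp4a31 differed by 0.62 ± 0.29 at 9 weeks with overlap (adjusted p = 0.365). In subfamily 4f, whose enzymes hydroxylate leukotrienes and fatty acids, 4 of 9 members were measurable and 3 of these 4 lay below wild type at 9 weeks. Cyp4f13 read 8.84, 8.95 and 8.91 against 8.51, 8.45 and 8.46 (-0.43 ± 0.10; adjusted p = 0.0684). Cyp4f15, its member with the highest mean, overlapped (-0.25 ± 0.13).

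Cyp3a11, the main PXR-inducible P450 of mouse liver, lay above wild type in the knockout at 9 weeks, with 11.15, 11.15 and 11.14 against 10.53, 10.52 and 10.80 (0.53 ± 0.14, SE; 1.44-fold, adjusted p = 0.0964). At 3 weeks it read 11.10, 11.21 and 11.14 in wild type against 11.10, 11.18, 11.60 and 11.61. Cyp3a25 differed by 0.31 ± 0.20 at 3 weeks and -0.28 ± 0.21 at 9 weeks, and Cyp3a13 by 0.36 ± 0.18 and -0.29 ± 0.20, each with overlap.

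Cyp2b10, the classic target of the xenobiotic receptor CAR, differed widely among the Sel1L-deficient livers. It read 5.30, 5.28 and 4.82 in wild type at 3 weeks and 5.70, 5.13, 8.06 and 9.28 in the knockout. At 9 weeks it read 4.36, 4.37 and 3.55 against 3.37, 8.52 and 7.90. Replicates 3 and 4 at 3 weeks and replicates 2 and 3 at 9 weeks were high, and the other 3 knockout livers were at or near wild-type levels. With this spread the differences of 1.91 ± 1.21 and 2.50 ± 1.29 (SE) were far from the threshold (adjusted p = 0.763 and 0.428). At 9 weeks Sel1L-deficient replicate 1 lay below every wild-type liver and replicates 2 and 3 lay above every one, so the ranges overlapped.

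Other genes with the same 2 livers highest at 3 weeks, picked after their values were seen, were Cyp2c55, Cyp2c54 and Cyp2c50. Cyp2c55, an inducible enzyme, read 5.44, 6.05 and 5.43 in wild-type livers of 3 weeks against 5.18, 5.88, 6.90 and 7.36 in knockout livers. Cyp2c54 read 7.46, 6.73 and 7.33 against 6.62, 6.58, 9.28 and 9.26, and Cyp2c50 9.53, 9.31 and 9.72 against 9.57, 9.60, 10.32 and 10.47. Cyp2c29 (11.11, 11.18, 11.80 and 11.79 in the knockout) and Cyp3a11 also had replicates 3 and 4 as their highest livers. Counted over the 40 measurable members, Sel1L-deficient replicates 1, 2, 3 and 4 at 3 weeks lay above every wild-type liver of that age for 5, 11, 21 and 22 genes (12.5%, 27.5%, 52.5% and 55%). Of all features of that brightness 23.7%, 23.7%, 28.9% and 27.8% did so. They lay below every wild-type liver for 11, 8, 6 and 7 genes (27.5%, 20%, 15% and 17.5%), against 19.2%, 23.8%, 28.6% and 26.5% of those features. Replicates 3 and 4 also had the least Sel1l of this group. At 9 weeks the replicate with Cyp2b10 at 3.37 had the most Sel1l of its group (7.90), and the part of remaining Sel1l in these values was not tested.

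**Figure D5:**
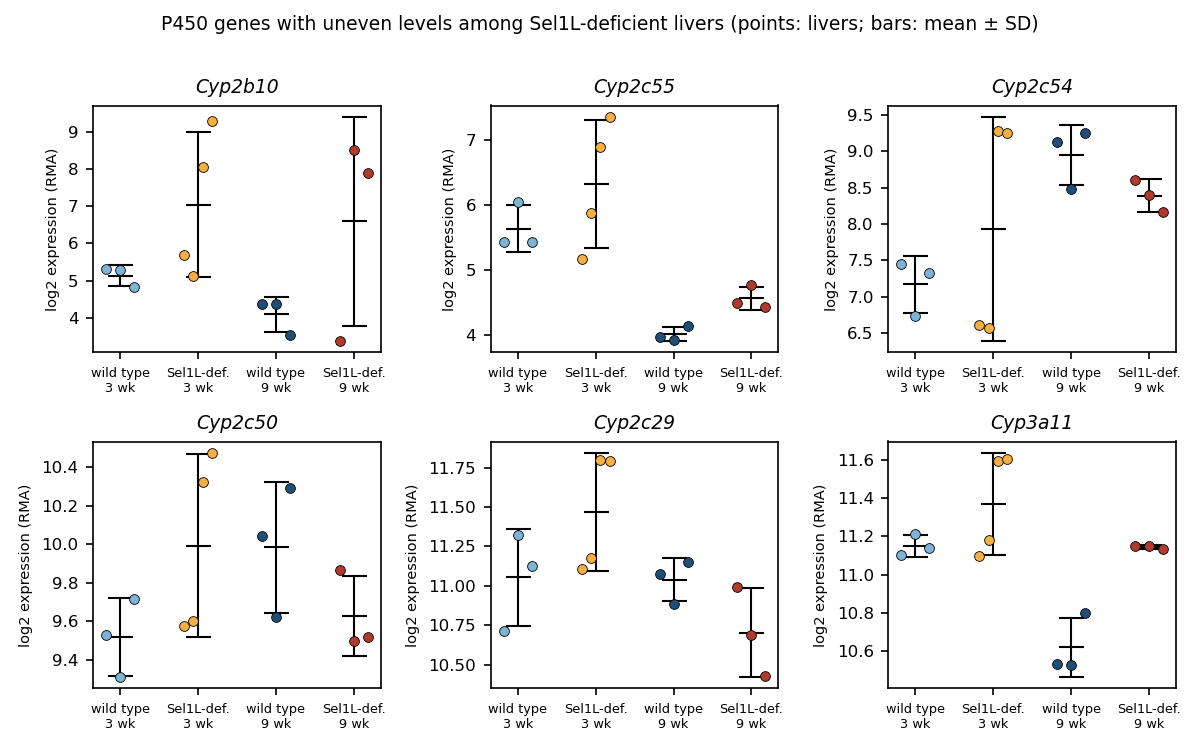
Log2 expression (vertical axis) of Cyp2b10 and 5 further P450 genes in the 4 groups (horizontal axis), with a point for each liver and bars for mean ± SD. Among the 4 Sel1L-deficient livers at 3 weeks, 2 lie high and 2 lie near wild type in each panel, while at 9 weeks Cyp2b10 is high in 2 of 3 knockout livers.

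A list of P450 partners and regulators, 28 of whose 35 genes had a 1-symbol feature, had 0 members called in any of the 5 comparisons. Of all features 0% to 1.89% were called in these comparisons, so 0 of 28 is not a result about the list. At 9 weeks 21 of the 28 lay below 0, with a median of -0.09 log2 units. Of all features above the median of feature means 43.8% lay below 0, with a median of 0.04. Of the electron donors, Cyb5r3 (cytochrome b5 reductase) differed by -0.40 and Pgrmc1, a haem-binding partner, by -0.31 (adjusted p = 0.173 and 0.268). Alas1, the rate-limiting enzyme of haem synthesis, differed by -0.79 at 3 weeks and -0.38 at 9 weeks (adjusted p = 0.600 and 0.656). Among receptors, Nr1h4 (FXR) differed by -0.46, Nr3c1 (the glucocorticoid receptor) by -0.42, Ahr by 0.39, Nr1i2 (PXR) by -0.09 and Ppara by -0.09 at 9 weeks (adjusted p = 0.106, 0.0585, 0.585, 0.914 and 0.913). Of the liver factors, Onecut1 differed by -1.08 at 3 weeks and -0.85 at 9 weeks (adjusted p = 0.567 and 0.369), and Cebpa by -0.50 and Hnf4a by -0.15 at 9 weeks (adjusted p = 0.243 and 0.733). Por, the electron donor of all these P450s, and Nr1i3, the gene of CAR, had no 1-symbol feature and were not analysed here.

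Hepatocyte markers (9 of 10 measured, such as Alb and Apoa1) had mean levels of 12.54 to 12.67 and 12.58 to 12.73 in wild-type and knockout liver at 3 weeks, and 12.65 to 12.72 and 12.57 to 12.67 at 9 weeks. At 9 weeks 0 genes of the 7 lists for other liver cells were called between genotypes, against 1.52% of all features. The Kupffer cell list (9 of 9 measured) averaged 7.13, 7.60 and 7.43 in wild-type livers against 6.69, 7.83 and 7.82 in knockout livers. Knockout replicate 1 lay below every wild-type liver and replicates 2 and 3 above, as they did for Cyp2b10. The endothelial list (7 of 7) ranged from 7.73 to 7.83 and from 7.69 to 7.84. The erythroid list, of which 2 of 6 genes were measured, did not overlap (5.32 to 5.87 and 4.70 to 5.27). At 3 weeks the Kupffer list averaged 7.47, 7.35, 7.35 and 7.67 in knockout livers against 7.83 to 7.95 in wild type. Replicate 3, with high Cyp2b10, was among the lowest of these knockout livers (7.35), while replicate 4, with the highest Cyp2b10, was the highest of them (7.67). The endothelial list ranged from 7.80 to 8.10 in the knockout and from 8.14 to 8.18 in wild type. The erythroid list ranged from 4.83 to 5.93 and from 6.00 to 6.95. In wild-type ageing neither these 3 lists nor the stellate list (7 of 7, 7.61 to 7.69 at 3 weeks and 7.09 to 7.54 at 9 weeks) overlapped between ages. Called lower were 1 Kupffer, 3 endothelial, 1 stellate and 1 erythroid gene, against 1.12% of all features. In whole liver, fewer cells of a type and less RNA per cell cannot be told apart, and the part of these cells in the P450 differences was not tested.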

How the data were processed

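Liver RNA of 13 mice was measured on whole-transcript arrays, 1 array per liver. The authors' deposited values are log2 expression per array feature, and the submitters' processing notes name RMA. RMA quantile-normalizes, which largely removes a shift common to most genes. The sources used here give no version or genome build, and the table has no detection calls. Array scans were not used. Of 35556 features, 21218 carried 1 gene symbol in the platform annotation, 1881 several and 12457 none. All 62 members matched a RefSeq gene number.

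Groups came from the sample titles. The labels describe separate mice. Each comparison was a contrast in 1 limma 3.58.1 fit (R 4.3.3; a mean per group over 13 livers, eBayes, two-sided), with Benjamini-Hochberg adjustment over all 35556 features. The fit was tested on simulated data. Precision is set by the number of arrays, and measurable members had a median SD within groups of 0.146 to 0.213. Livers with the same number in their titles did not deviate together (r between -0.04 and 0.14), so the numbers were not taken as pairs. In both 9-week groups replicate 3 carries number 4 in its array description, and the range was the same with those numbers. Members, lists and tests were chosen with earlier results of these data known. Named were the called members, the highest member of each subfamily and the 5 members with the smallest p in each comparison. Further members named to describe their subfamily, such as Cyp2c39, Cyp2c50, Cyp2c54 and Cyp2c55, were chosen after their values were seen. Upstream sequences came from RefSeq (GRCm38.p6) and were aligned with Biopython 1.88. Alternatives covered the features tested, normalization, centring, position column, replicate number, variance prior, groups in the fit, choice of feature and single livers left out.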

Additional observations from a re-analysis of the deposited data

Results flagged for a closer look

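The Sel1L-deficient group at 3 weeks, with 4 livers, was examined by Dixon's test for a liver that stood apart from the others, and groups of 3 were not examined. Of 35 named members 2 had such a liver, where chance flags about 1 in 20. Cyp4f16 read 4.39 in replicate 2 and 4.75 to 4.77 in the others. Cyp1b1, which is below the median of feature means, read 3.11 in replicate 1 and 2.75 to 2.79 in the others.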

How the results depend on the processing

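At 9 weeks the 4 members called between genotypes became 12 when only features with 1 symbol or only features above the median were tested, and 9 with a trended, robust variance prior. The count was 0 when only the 2 groups compared were fitted, and 0 to 11 with single livers left out. In those left-out fits 18 to 1178 of all features were called. With the replicate number as a block, although the numbers do not pair the livers, it was 1 (Cyp2d40), and also 1 with the array description numbers, a fit added after the data were seen. For the 10 wild-type age calls, leaving out single livers gave 6 to 11, with 296 to 639 of all features called. Testing 1-symbol features or features above the median gave 14, of which 2 were lower (Cyp2c39 and Cyp4a14), and fitting only the groups compared gave 10, of which 1 was lower (Cyp2c55). For the 2 calls between ages in Sel1L-deficient liver the count was 5 with 1-symbol features, the 3 added ones all lower. It was 1 with repeated quantile normalization, median centring, the position column as a block, either replicate block or only the groups compared. With single livers left out it was 1 to 2, where 6 to 210 of all features were called. Counts of 0 at 3 weeks and for the interaction stayed 0 under every alternative run. The calls over all features changed with the setting too, so a changed count is not a result about the members alone. Of the alternative values for named differences, 591 kept their side of the threshold, 86 lost a call and 8 gained one, and 0 changed direction. The 591 include differences that were not called as reported and so had no call to lose. Among 145 further differences, of members not named for them, 143 of 3275 values took the other sign. In these array data a change in a member near background may go unseen.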
